A study of Mus musculus with 4 samples.

Results

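The genes examined were the 7 EGF family ligands Areg, Ereg, Egf, Tgfa, Hbegf, Btc and Epgn, and the 3 ERBB receptors Egfr, Erbb2 and Erbb3. They were found by gene symbol and made up 10 of the 22556 genes in a table of RNA-seq expression values of mouse lungs taken whole at E16.5. The family was selected because Areg and Ereg were higher in the Shh-Stk11 libraries, so the values of these genes between genotypes are given as a description and without a p-value. The table held 4 libraries, 2 from Control and 2 from Shh-Stk11 embryos. Control embryos were Shh-Cre; Stk11F/+, with a single floxed allele of the kinase gene Stk11, and Shh-Stk11 embryos were Shh-Cre; Stk11F/F. All 4 libraries therefore carried the Cre driver and at least a single floxed allele, and no library came from an embryo without Cre. Shh-Cre acts in the endoderm, from which the airway and alveolar epithelium derives, whereas the RNA came from the whole organ with its mesenchyme, vessels and blood. The labels gave the strain as C57BL/6, while the methods of the study described mixed backgrounds, and neither gave the sex or litter of the embryos.

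EGF family ligands are made as membrane proteins and are shed from the cell surface by metalloproteinases. AREG, EGF, TGFA and EPGN bind EGFR, whereas EREG, HBEGF and BTC bind both EGFR and ERBB4. Receptors pair on binding and signal through adaptors to RAS, the RAF and MEK kinases and ERK. ERBB2 has no known ligand and serves as a partner, and ERBB3, a receptor for neuregulins, has little kinase activity of its own. In the lung this pathway is known for its part in epithelial growth and repair, and activating EGFR mutations are found in lung adenocarcinoma.

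Epgn, Ereg, Areg and Btc lie within a single stretch of mouse chromosome 5. To show the sequence in front of this group, the 250 bases upstream of the start are printed for Areg, Epgn and Btc (RefSeq, build GRCm38.p6), each 5′ to 3′ on the strand of its gene, with capitals for matches to the cAMP response element (CRE), the element bound by CREB proteins. The windows are chr5:91139349-91139598 on the plus strand for Areg, chr5:91027267-91027516 on the plus strand for Epgn, and chr5:91402995-91403244 on the minus strand for Btc.
Areg promoter: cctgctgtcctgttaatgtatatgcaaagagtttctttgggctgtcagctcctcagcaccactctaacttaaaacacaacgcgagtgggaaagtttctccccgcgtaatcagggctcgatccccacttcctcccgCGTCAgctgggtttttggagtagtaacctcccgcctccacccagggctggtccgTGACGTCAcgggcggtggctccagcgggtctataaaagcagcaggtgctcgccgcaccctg
Epgn promoter: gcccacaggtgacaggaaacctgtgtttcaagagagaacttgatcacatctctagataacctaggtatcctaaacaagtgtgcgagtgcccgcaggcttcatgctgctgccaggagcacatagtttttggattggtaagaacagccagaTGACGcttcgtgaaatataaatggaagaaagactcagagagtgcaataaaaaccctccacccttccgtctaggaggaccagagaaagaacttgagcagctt
Btc promoter: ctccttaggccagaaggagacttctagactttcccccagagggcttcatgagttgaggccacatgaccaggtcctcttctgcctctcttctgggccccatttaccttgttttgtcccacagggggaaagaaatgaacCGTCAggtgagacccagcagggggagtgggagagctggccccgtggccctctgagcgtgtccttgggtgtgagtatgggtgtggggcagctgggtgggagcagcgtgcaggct
The full CRE, TGACGTCA, was in the Areg window from 61 to 54 bases before the start. The same letters were in 508 of 32851 RefSeq windows of this length (1.55%), and in 1 of the 8 windows of the 7 family genes with an entry in the table of windows used here. Ereg, Hbegf and Erbb3 had none, so the letters before Ereg cannot be set beside those before Areg. The shorter CRE motif, TGACG, was searched on both strands and was in 5836 windows (17.8%). It was in 4 of the 8 family windows, those of Areg, Epgn, Btc and Erbb2. In Areg it lay inside the full CRE on both strands, and once more on the minus strand from 115 to 111 bases before the start. The AP-1 element, TGANTCA, was in 2217 windows (6.75%) and in 0 of the 8 family windows. These matches describe the letters of the windows, and binding was not measured.

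The deleted gene was examined first, because it bears on the labels. Stk11, a serine/threonine kinase that activates AMPK, was at 44.0 FPKM in Control 1 and 45.5 FPKM in Control 2, against 29.5 FPKM in Shh-Stk11 1 and 26.0 FPKM in Shh-Stk11 2. FPKM is a read number per length of transcript and per mapped read of the library. Both Shh-Stk11 libraries lay below both Control libraries, with a log2 fold change of -0.69 (SE 0.13, limma adjusted p = 0.0499). That p-value lay just inside the threshold of 0.05 and ranged from 0.0449 to 0.183 over 14 alternative settings, leaving aside a replicate block with crossed numbers that was added after seeing the data, with 2 of 14 inside it and none of those that left out a library. Control embryos were themselves heterozygous, and the tissue outside the epithelium kept the gene. Here, as for every gene below, fewer cells of a type and less RNA per cell cannot be told apart in RNA from the whole organ.

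Areg was the most abundant ligand transcript in every library. Areg encodes amphiregulin, which binds EGFR. It was at 11.0 FPKM in Control 1 and 10.9 FPKM in Control 2, and at 75.6 FPKM in Shh-Stk11 1 and 64.4 FPKM in Shh-Stk11 2. The groups did not overlap, and the Control libraries differed from each other far less than either did from a Shh-Stk11 library. The means were 10.95 ± 0.110 FPKM and 70.0 ± 7.93 FPKM (SD, n = 2 each), a 6.39-fold difference and a log2 fold change of 2.66 (SE 0.13) on the log2(FPKM + 0.1) scale. With its single annotated transcript of 1215 bases, these values corresponded to about 422 and 345 reads in Control and 2346 and 2152 reads in Shh-Stk11. Of the 13770 genes tested, 37 had a larger log2 fold change than Areg.

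Ereg, which encodes epiregulin, was barely expressed in Control lungs. Its level was 0.160 FPKM in Control 1 and 0.249 FPKM in Control 2, against 3.15 FPKM in Shh-Stk11 1 and 2.38 FPKM in Shh-Stk11 2. No Control library came near a Shh-Stk11 library. The means were 0.205 ± 0.0631 FPKM and 2.76 ± 0.544 FPKM (SD, n = 2 each), a 13.5-fold difference and a log2 fold change of 3.23 (SE 0.31). The fold rested on about 24 and 31 reads in Control, together 54.9 with a 95% Poisson interval from 41.3 to 71.4 for counting error, and on about 381 and 310 reads in Shh-Stk11. The Control mean was below the filter of 0.5 FPKM, so Ereg was tested because of its Shh-Stk11 libraries. The log2 fold change depended on the pseudocount, at 1.64 with a pseudocount of 1 and 3.71 with 0.01.

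**Figure D1:**
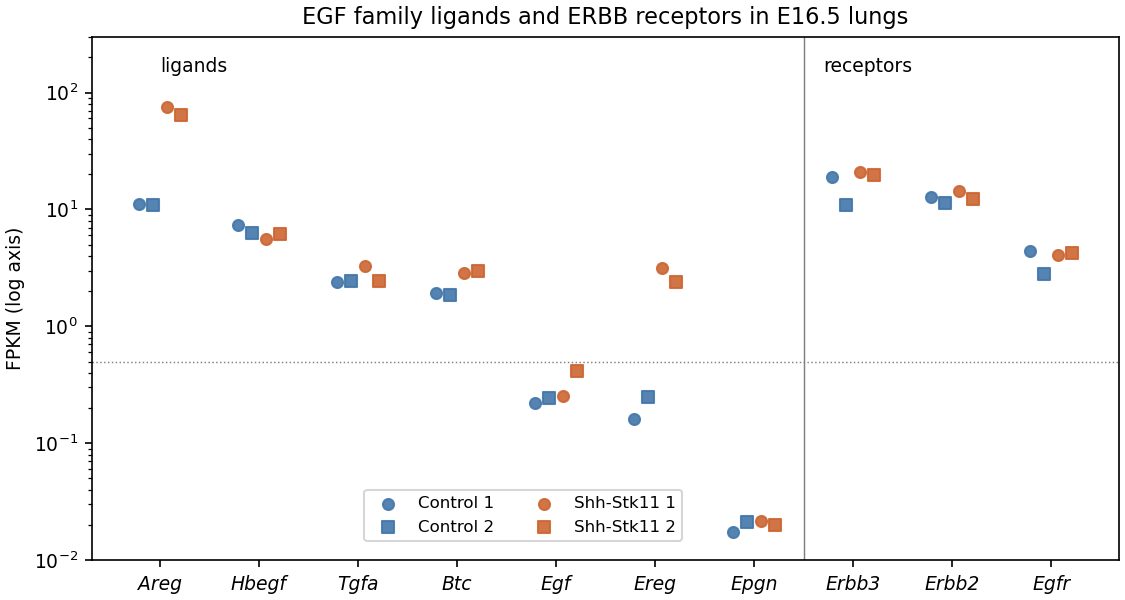
FPKM of the 7 ligand genes and 3 receptor genes in each library (log axis, 1 point per library, circles for replicate 1 and squares for replicate 2). The dotted line marks the filter of 0.5 FPKM. Areg and Ereg show the widest gap between the blue Control points and the orange Shh-Stk11 points, and Control 2 lies below the other libraries for Erbb3 and Egfr.

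Btc and Hbegf also had groups that did not overlap, with smaller differences in opposite directions. Btc, which encodes betacellulin, was at 1.95 and 1.87 FPKM in Control and at 2.85 and 2.99 FPKM in Shh-Stk11, with a log2 fold change of 0.59 (SE 0.18). The difference between its group means was 1.53-fold and exceeded the spread within either group. Once the trend of fold changes with transcript length and GC content was removed, its log2 fold change was 0.30. Hbegf, which encodes heparin-binding EGF-like growth factor, was at 7.43 and 6.30 FPKM in Control and at 5.54 and 6.13 FPKM in Shh-Stk11, with a log2 fold change of -0.23 (SE 0.15). Control 2 and Shh-Stk11 2 lay close together, and the log2 fold change was below 0 under all 15 alternative settings, from -0.35 to -0.09.

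Tgfa, Egf and Epgn completed the ligands. Tgfa, which encodes transforming growth factor alpha, was at 2.39 and 2.43 FPKM in the Control libraries, at the like level of 2.42 FPKM in Shh-Stk11 2, and stood apart in Shh-Stk11 1 alone with 3.30 FPKM. Its groups overlapped, and its log2 fold change of 0.22 (SE 0.21) was 0.005 without Shh-Stk11 1. Egf, the founding member of the family, was at 0.219 and 0.243 FPKM in Control and at 0.256 and 0.416 FPKM in Shh-Stk11, or about 38, 35, 36 and 63 reads if the longest transcript is taken. It fell below the filter and was not tested, and Shh-Stk11 2 alone stood above the others. Epgn, which encodes epigen, was listed at 0.0175 to 0.0216 FPKM, which corresponded to about 1 read in each of the 4 libraries, so no fold is given.

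The order of the ligands by FPKM, which compares transcripts per length, changed at its lower end. In Control lungs Areg was followed by Hbegf, Tgfa and Btc, whose ranges did not overlap, then by Egf and Ereg, whose ranges overlapped, and by Epgn. In Shh-Stk11 lungs Areg and Hbegf were again at the top, the ranges of Btc, Tgfa and Ereg overlapped, and Egf and Epgn came last. Ereg thus moved from the level of Egf to the level of Tgfa and Btc.

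The summed level of the 7 ligands was 23.2 and 21.99 FPKM in Control and 90.7 and 78.8 FPKM in Shh-Stk11. Areg held 47.6% and 49.5% of this sum in Control and 83.3% and 81.8% in Shh-Stk11, while Hbegf held 32.0% and 28.7% in Control and 6.11% and 7.78% in Shh-Stk11. The share of Ereg was 0.69% and 1.13% in Control and 3.47% and 3.02% in Shh-Stk11. Without Areg and Ereg the sum was 12 and 10.9 FPKM in Control and 11.97 and 11.98 FPKM in Shh-Stk11, so the larger sum was carried by these genes. Between them the balance also differed, since the ratio of Areg to Ereg was 68.9 and 43.6 in Control and 24.0 and 27.1 in Shh-Stk11. The Control ratios rest on the few reads of Ereg given above.

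**Figure D2:**
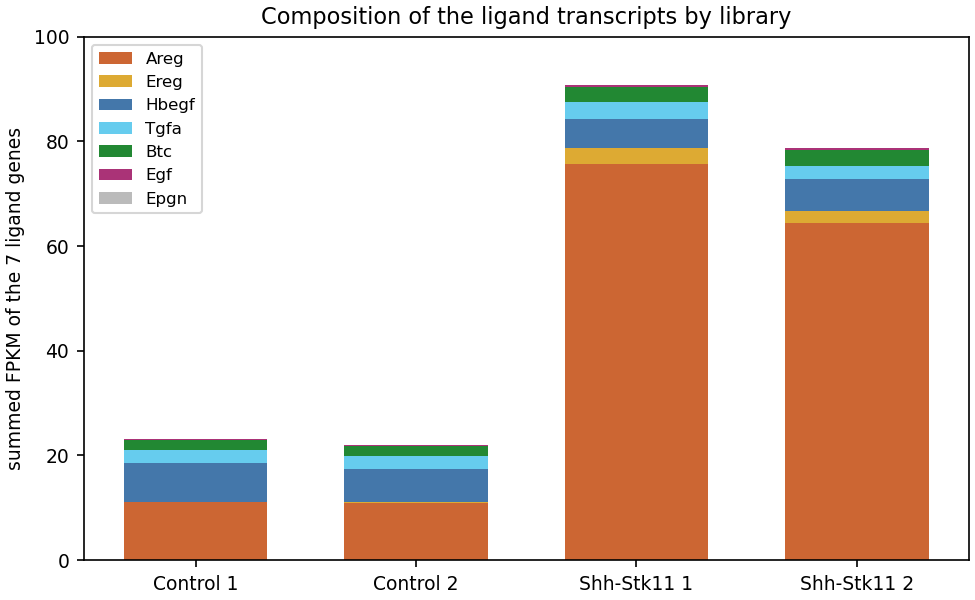
Stacked FPKM of the 7 ligand genes in each library (1 bar per library, axis from 0). The bars of both Control libraries stand at 23.2 and 21.99 FPKM and those of the Shh-Stk11 libraries at 90.7 and 78.8 FPKM, with Areg as the tallest segment in each bar.

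The receptors showed smaller differences, and those of Erbb3 and Egfr turned on Control 2. Erbb3, the receptor partner with little kinase activity, was at 18.8 FPKM in Control 1 and 10.9 FPKM in Control 2, and at 20.8 and 19.9 FPKM in Shh-Stk11. Its groups did not overlap, but the Control libraries were 0.78 apart on the log2 scale, more than the log2 fold change of 0.50 (SE 0.25). Without Control 2 the log2 fold change was 0.11 and without Control 1 it was 0.89. Egfr, the receptor of all 7 ligands, was at 4.39 FPKM in Control 1, 2.83 FPKM in Control 2, and 4.07 and 4.27 FPKM in Shh-Stk11. Control 1 lay above both Shh-Stk11 libraries and Control 2 below them, and the log2 fold change of 0.24 (SE 0.23) was -0.07 without Control 2, 0.54 without Control 1 and -0.05 once the trend with length and GC content was removed.

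Erbb2, the receptor without a known ligand, was at 12.7 and 11.3 FPKM in Control and at 14.2 and 12.3 FPKM in Shh-Stk11. Its groups overlapped, with a log2 fold change of 0.15 (SE 0.14) that lay between 0.04 and 0.25 when single libraries were left out. In Control lungs the ranges of Erbb3 and Erbb2 overlapped and Egfr was lower, and in Shh-Stk11 lungs Erbb3, Erbb2 and Egfr followed in this order without overlap. The summed level of these receptors was 35.9 and 25.0 FPKM in Control and 39.2 and 36.5 FPKM in Shh-Stk11. Erbb4, the fourth receptor of the family and not among the genes selected, was at 0.0130, 0.0390 and 0.0799 FPKM in Control 1, Control 2 and Shh-Stk11 1 and was listed at 0 in Shh-Stk11 2.

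Of the 10 genes, 8 reached a mean of 0.5 FPKM and were tested, and Egf and Epgn were not. Since the family was chosen from this comparison, and Ereg reached the filter only through its Shh-Stk11 libraries, no count of family genes past the test's threshold is given. Both Shh-Stk11 libraries lay above both Control libraries for 5 of the 10 genes (Areg, Ereg, Btc, Egf and Erbb3). They lay below them for 1 (Hbegf). Among the 8 tested, the counts were 4 above and 1 below, against 19.2% above and 27.6% below over the 13770 genes tested. Nothing is read from these counts either. The other 6 tested genes had log2 fold changes from -0.23 to 0.59 with a median of 0.23, beside a median of -0.05 over all genes tested.

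**Figure D3:**
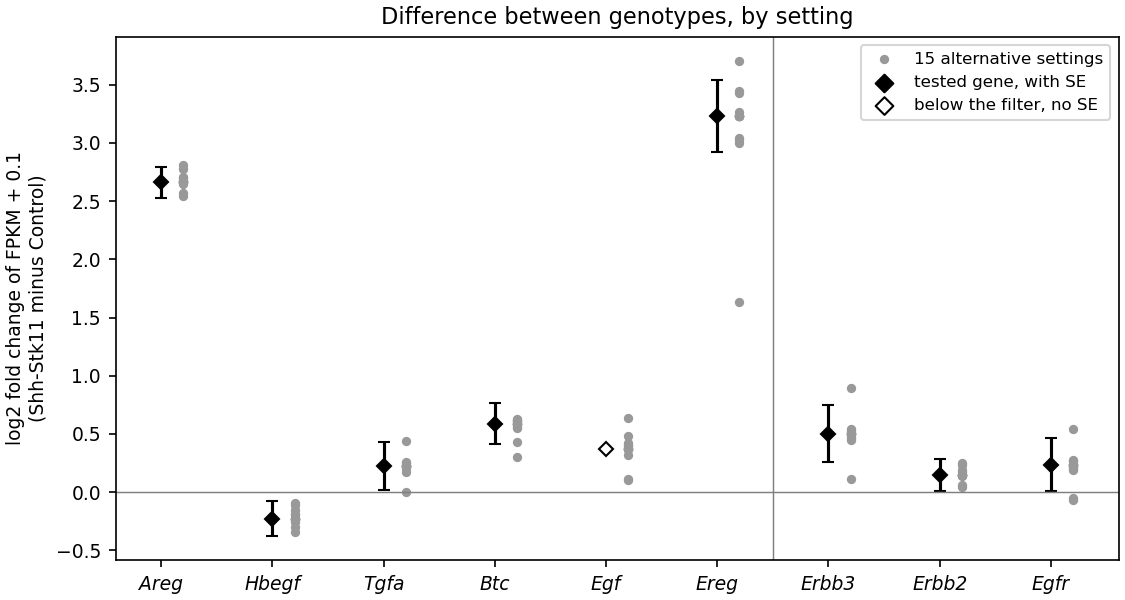
Log2 fold change of FPKM + 0.1 between Shh-Stk11 and Control for 9 of the genes (diamonds, bars for SE, open where the gene was below the filter) beside the values under the 15 alternative settings (grey, each on the scale of its own setting). Areg stayed between 2.54 and 2.81, Ereg ranged from 1.64 to 3.71, and Egfr spanned 0.

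Libraries differed in ways that touched these values. The depth worked out from the low values was 38.2, 31.7, 30.9 and 33.3 M reads in Control 1, Control 2, Shh-Stk11 1 and Shh-Stk11 2. When genes were divided into 10 groups by transcript length, the median log2 fold change ran from -0.19 in the shortest group, which holds Areg, to 0.19 in the longest, which holds Egfr. Control 2 was lower than Control 1 by a median of 0.20 in the group of Egfr and by 0.12 in that of Erbb3, against 0.61 and 0.78 for these receptors. The part of this trend in the receptor values was not tested. The library Shh-Stk11 2 stood apart in sex-linked transcripts, with Xist at 0.239 FPKM against 65.1 to 169 FPKM in the others and Ddx3y at 23.5 FPKM against 0 to 0.0285 FPKM.

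Markers of lung cell types were set beside these values. In the list for lung epithelium, 10 of 10 genes were tested and 0 passed the threshold, with 4 at an unadjusted limma p under 0.05, and the median log2 fold change was 0.21. Over all genes tested 15.2% had an unadjusted limma p under 0.05, the share beside which this and the following counts stand. Its summed level was 16882 to 18559 FPKM in Control and 9351 to 13543 FPKM in Shh-Stk11, of which Sftpc, the surfactant protein C gene, made up the largest share, with a log2 fold change of -0.76. The other 9 genes went the other way in sum, at 1134 and 1099 FPKM in Control and 1346 and 1495 FPKM in Shh-Stk11, and in the whole list 8 of 10 log2 fold changes were above 0. In the list for ciliated cells, 6 of 7 tested genes passed the threshold as lower in Shh-Stk11, against 1.29% of all genes tested. All 7 had a log2 fold change below 0 and an unadjusted limma p under 0.05. The summed level was 114 to 118 FPKM in Control and 33.7 to 33.8 FPKM in Shh-Stk11. The airway secretory genes went both ways. Scgb3a2 and Upk3a fell, 2 of 4 tested, with log2 fold changes of -1.41 and -1.49 (limma adjusted p = 0.0422 and 0.00743), whereas Scgb1a1, the club cell secretory protein gene, was at 221 and 102 FPKM in Control and 312 and 471 FPKM in Shh-Stk11 (log2 fold change 1.35, limma adjusted p = 0.144). The mucin genes Muc5b and Muc5ac were below the filter, and both Shh-Stk11 libraries lay above both Control libraries for each of them, with Muc5b at 0.0178 and 0.0364 FPKM against 0.737 and 0.285 FPKM. The secretory list summed to 850 to 853 FPKM in Control and 666 to 727 FPKM in Shh-Stk11. In the immune list 0 of 7 tested passed the threshold, with 1 at an unadjusted limma p under 0.05, the sums were 308 to 341 FPKM and 214 to 396 FPKM, and Cd3e, which marks T cells, was at 0 in at least a single library. In the lists for mesenchyme and endothelium, 0 of 8 and 0 of 8 passed it, with 3 and 4 at an unadjusted limma p under 0.05 and median log2 fold changes of -0.19 and -0.34. The log2 fold change was below 0 for 7 of 8 mesenchyme genes and for 8 of 8 endothelium genes, and the sums of these lists were 1016 to 1122 FPKM and 610 to 713 FPKM in Control, against 922 to 930 FPKM and 493 to 525 FPKM in Shh-Stk11. Of 6 red blood cell genes 1 passed the threshold as lower, Hba-x, and 4 had an unadjusted limma p under 0.05. All 6 log2 fold changes were below 0, with a median of -0.67. The sums of this list were 166 to 167 FPKM in Control and 97.7 to 101 FPKM in Shh-Stk11. In the lists for neuroendocrine cells, mesothelium and heart muscle 0 of 4, 0 of 4 and 0 of 5 passed it, with 1, 2 and 0 at an unadjusted limma p under 0.05 and median log2 fold changes of 0.07, -0.33 and -0.86. All 5 tested heart muscle genes were below 0, but the groups overlapped for each of them. The heart muscle sums overlapped too, at 77.3 to 160 FPKM in Control and 34.8 to 97.4 FPKM in Shh-Stk11. Calca, a neuroendocrine marker, was at 6.09 and 9.22 FPKM in Control and 17.2 and 15.5 FPKM in Shh-Stk11 (log2 fold change 1.11, limma adjusted p = 0.0532). Whether shifts in cell makeup had a part in the values of Areg, Ereg or the other family genes was not tested.

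Of the genes around Areg and Ereg that are not in the family, Mthfd2l and Parm1 were tested and neither passed the threshold. In the order of the chromosome, the stretch from Cxcl2 to Parm1 held 13 annotated genes, of which 8 were in the table. On the side of Epgn, the chemokine gene Cxcl2 was at 0.210 and 0 FPKM in Control and 0.111 and 0.412 FPKM in Shh-Stk11, and Mthfd2l, a mitochondrial folate enzyme gene, had a log2 fold change of 0.21 (limma adjusted p = 0.767). On the side of Btc, Parm1 was at 4.87 and 4.33 FPKM in Control and 3.72 and 3.50 FPKM in Shh-Stk11, with a log2 fold change of -0.34 (limma adjusted p = 0.378). Between Areg and Btc, the long noncoding RNA gene Gm19619 was at 0.0099 and 0 FPKM in Control and 0.0611 and 0.0454 FPKM in Shh-Stk11, or about 1.1, 0, 5.6 and 4.5 reads. Gm52819, Gm19610, Gm23092, Gm42110 and LOC115490279 lie in the same stretch and were not analysed here. Along the same stretch the log2 fold change was 3.23 for Ereg, 2.66 for the adjoining Areg and 0.59 for Btc, and Epgn gave none at 1 read.

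**Figure D4:**
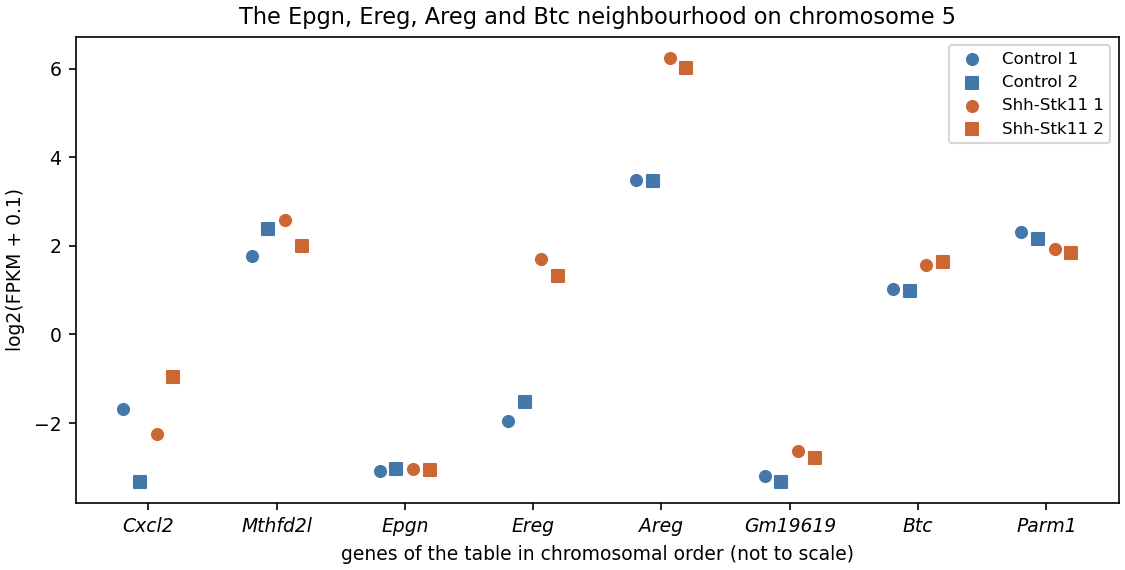
Level of the 8 measured genes around Areg as log2(FPKM + 0.1), in their order on chromosome 5 and not to scale (1 point per library). Ereg and Areg are the places where the orange Shh-Stk11 points stand well above the blue Control points, Btc shows a narrower gap, and Epgn sits near the bottom in all libraries.

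Other genes of the pathway were examined in 6 lists of 64 genes, all in the table and 59 of them tested. The difference passed the threshold in 2 of 59 (3.39%, against 2.27% of all genes tested), both higher in Shh-Stk11, as were 0.98% of all genes tested, and 7 had an unadjusted limma p under 0.05, against 15.2% of all genes tested. The median log2 fold change of the 59 was -0.003. Neither of the calls held when any single library was left out.

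Ligands and enzymes upstream of the receptors showed no gene past the threshold. Of the neuregulins and Erbb4, which add ligands for ERBB3 and ERBB4, 2 of 5 genes were tested. Nrg2 was at 1.20 ± 0.259 FPKM in Control against 0.801 ± 0.177 FPKM in Shh-Stk11 (SD, n = 2 each, log2 fold change -0.53, limma adjusted p = 0.463), and Nrg4 at 0.823 ± 0.0236 and 1.17 ± 0.201 FPKM (0.45, limma adjusted p = 0.485). Of the 10 genes for shedding and traffic of ligands, 9 were tested, 0 passed the threshold and 0 had an unadjusted limma p under 0.05. Adam17, the protease that sheds AREG and EREG and was chosen for this role after its values were seen, was at 40.3 ± 2.09 FPKM in Control against 43.9 ± 1.58 FPKM in Shh-Stk11 (log2 fold change 0.12). Rhbdl2, a rhomboid protease gene below the filter, was at 0.208 and 0.251 FPKM in Control and at 0.481 and 0.446 FPKM in Shh-Stk11, and Timp3, a metalloproteinase inhibitor gene, had a log2 fold change of -0.38 (limma adjusted p = 0.595).

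No adaptor or feedback gene passed the threshold. Of 12 adaptor and receptor turnover genes, 0 passed it and 0 had an unadjusted limma p under 0.05, with Sos1, a RAS exchange factor gene, at a log2 fold change of 0.41 (limma adjusted p = 0.356) and the ubiquitin ligase gene Cbl at 0.28 (limma adjusted p = 0.615). Of 16 feedback inhibitors 0 passed it and 3 had an unadjusted limma p under 0.05, where 15.2% of all genes had one. Nf1 and Rasa1, which encode RAS GTPase activators, had log2 fold changes of 0.60 (limma adjusted p = 0.328) and 0.59 (limma adjusted p = 0.121). Lrig1, a negative regulator of ERBB receptors named after its values were seen, was at 9.78 ± 0.253 FPKM in Control against 6.77 ± 0.127 FPKM in Shh-Stk11 (SD, n = 2 each, log2 fold change -0.52, limma adjusted p = 0.102). For the adaptors the median log2 fold change was 0.02, and for the feedback inhibitors 0.08.

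Among the kinases from RAS to ERK, 1 of 11 genes passed the threshold. Braf, a RAF kinase gene, was at 4.37 and 4.12 FPKM in Control and at 7.97 and 7.43 FPKM in Shh-Stk11, with a log2 fold change of 0.84 (SE 0.14, limma adjusted p = 0.0385). Both Shh-Stk11 libraries lay well above both Control libraries. The adjusted p ranged from 0.0305 to 0.193 over the same 14 alternative settings and passed the threshold in 5 of them, and with the trend of length and GC content removed the log2 fold change was 0.52 (limma adjusted p = 0.129). The median log2 fold change of the 11 genes was -0.06.

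Among ERK target genes, 1 of 9 tested passed the threshold. Egr1, an immediate early transcription factor gene, was at 3.03 and 3.26 FPKM in Control and at 6.26 and 6.84 FPKM in Shh-Stk11, with a log2 fold change of 1.04 (SE 0.15, limma adjusted p = 0.0259). The adjusted p ranged from 0.0197 to 0.17 over the 13 of these settings in which it was tested and passed the threshold in 7 of them. Ier3, another early response gene, went the other way, at 44.3 and 32.7 FPKM in Control and 19.5 and 23.2 FPKM in Shh-Stk11, with a log2 fold change of -0.84 that did not pass (limma adjusted p = 0.0774). The median of the 9 genes was -0.0001, with 4 genes above 0 and 5 below.

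**Figure D5:**
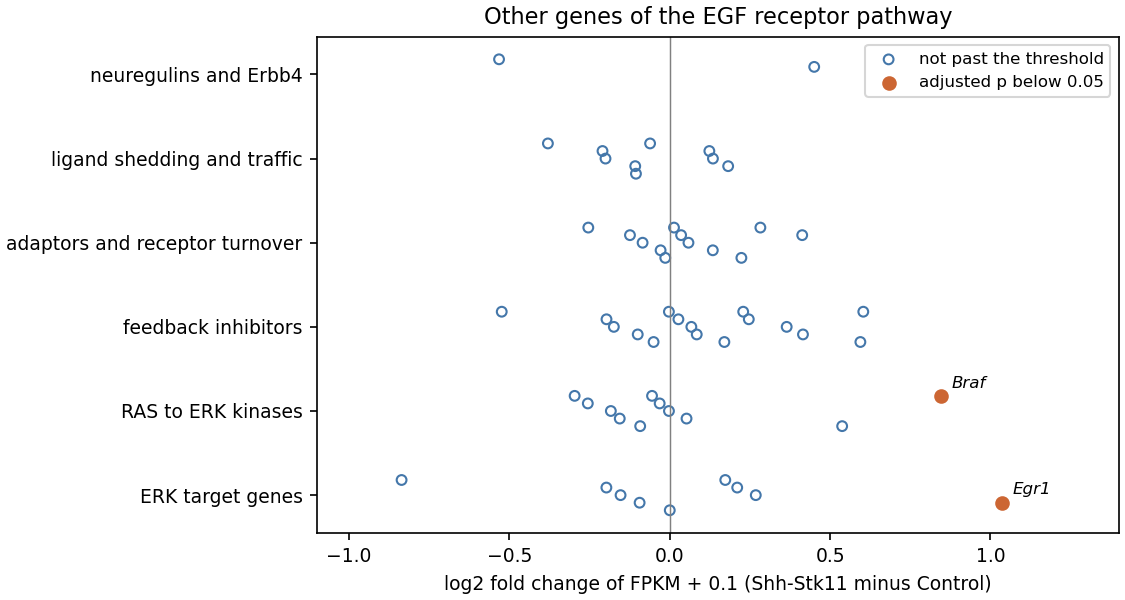
Log2 fold change of FPKM + 0.1 between Shh-Stk11 and Control for the 59 tested genes of 6 pathway lists (1 circle per gene, filled where limma's adjusted p is below 0.05). Braf at 0.84 and Egr1 at 1.04 are the filled circles, and the open circles lie on both sides of 0 in each list.

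Genes with a pattern most like that of Areg and Ereg were sought by the distance between profiles of log2(FPKM + 0.1) over the 4 libraries, each set to its own Control mean, among 12609 tested genes. The nearest to Areg was Pde10a, a cyclic nucleotide phosphodiesterase gene, at a distance of 0.18, with 0.660 and 0.707 FPKM in Control and 5.67 and 4.88 FPKM in Shh-Stk11. Ccdc83 followed at 0.25, with 0.110 and 0.106 FPKM in Control and 1.17 and 1.29 FPKM in Shh-Stk11, and then Pak3, a kinase gene, at 0.35. The nearest to Ereg was Oosp1 at 0.70, with 0.118 and 0.0951 FPKM in Control and 2.04 and 2.39 FPKM in Shh-Stk11, followed by Pde10a at 0.70 and Pak3 at 0.71. Areg and Ereg were 0.88 from each other, with 10 genes nearer to Areg and 3 nearer to Ereg. With 4 libraries in 2 groups, the distance mainly compares the size of the difference between genotypes. The Control levels of Ccdc83 and Oosp1 lay near the pseudocount of 0.1, which lowers their log2 fold changes. The means of Ccdc83 differed 11.35-fold, against 6.39-fold for Areg. The Control means of Ccdc83, Oosp1 and Pak3 were below the filter of 0.5 FPKM, so these genes were tested because of their Shh-Stk11 libraries.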

How the data were processed

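Total RNA of whole E16.5 lungs was sequenced from 2 Control and 2 Shh-Stk11 embryonic samples, and the samples were grouped by their labels. The authors deposited FPKM values for 22556 genes, made with TopHat2 2.0.13 and Cufflinks 2.2.1 according to the submitters' processing notes, which name GRCm38 and mm9 without a role, so positions are given for the RefSeq windows only. Any scaling between libraries is not given in the sources used here. Since FPKM are not counts, no count model was run. Of the symbols, 20242 were found in GENCODE M21 as written and 1903 under an older name, and 411 were unmatched.

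Genes whose mean over the libraries reached 0.5 FPKM, 13770 in all, were compared on log2(FPKM + 0.1) in R 4.3.3 with limma 3.58.1, with genotype as the single factor, with moderated variances and a trend on mean expression (4.48 prior and 2 residual degrees of freedom). Tests were two-sided, with Benjamini-Hochberg adjustment over all genes tested and a threshold of 0.05. With 2 libraries a group, an exact permutation test cannot go below 0.333. Fold changes of low genes are understated by the pseudocount. The fit was tested on simulated data. Nothing in the labels ties a sample to a litter or batch, so a litter or batch difference that follows genotype cannot be told apart from it. The p-values set the difference between groups against the spread within them, with variances moderated over genes. Reads were recovered from 1717 genes below 0.3 FPKM, of which 77.5% were whole multiples of a step within 0.04 read (up to 10 multiples), after taking 212 bases off the length. Intervals cover counting error only, and numbers of reads assume the annotated transcript.

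The members and gene lists were chosen with earlier results of these data known. By the rule for naming, the text gives every family gene, Stk11, Erbb4, the called genes or otherwise the 2 largest changes of each pathway list, chromosomal neighbours, and the 3 genes most like Areg and Ereg. Any other gene, such as Adam17, Lrig1, Ier3, Scgb1a1, Calca and Sftpc, was named after its values were seen. The alternatives were pseudocounts of 1 and 0.01, filters of 0.1 and 5 FPKM or none, median-ratio and quantile scaling, removal of the trend with length and GC content, no trend in the variances, a replicate block, and leaving out each library. A block with crossed numbers was added after seeing the data and is the last of the 15 alternatives.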

Additional observations from a re-analysis of the deposited data

How the results depend on the processing

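Of 13770 genes tested, 313 differed between genotypes. The number was 200 with a filter of 5 FPKM, 61 without a filter, 187 with the trend of length and GC content removed, and 38 to 191 with any single library left out. Of the pathway genes, 2 differed. The number was 0 with a filter of 5 FPKM and 0 without a filter, 1 after quantile normalization, 1 with the trend of length and GC content removed, and 0 whichever library was left out. Leaving out a library leaves its group with a lone sample, which is then assumed to vary like the other group. With a replicate block, 13 genes and 0 pathway genes differed, but the labels give only a shared number. Gene by gene, the deviations of same-numbered samples had a correlation of -0.11 over 13770 genes. By transcript length, however, replicate 2 differed from replicate 1 in a like way in both genotypes. In Control the median log2 difference ran from 0.21 in the shortest of the 10 length groups to -0.20 in the longest. In Shh-Stk11 it ran from 0.19 to -0.17. With the numbers crossed, a pairing chosen after seeing the data, 675 genes and 3 pathway genes differed. Every other setting stayed within 1.5 times of the main numbers, at 221 to 374 genes. The cause of these differences was not tested. The log2 fold changes of Areg, Ereg, Btc, Egf, Tgfa, Erbb2 and Erbb3 were above 0 and that of Hbegf below 0 under all 15 alternatives, whereas that of Egfr was below 0 under 2 of them. Depth limits Epgn, Egf and the Control level of Ereg.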
